A study of Xenopus laevis with 8 samples.

Results

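The myogenic regulators were read by 6 of the 21495 probes that both array designs carry, which stand for 4 genes: MyoD (2 probes), Myf5 (1 probe), myogenin (2 probes) and Mef2a (1 probe). A probe was included when its name or description on the array held MyoD or its *Xenopus* clone name mf25, myogenic factor, Myf5, Myf6 or MRF4, myogenin, or Mef2. The probe MGC52596, described as similar to myogenic differentiation 1, was included because those words spell out MyoD. There were 0 probes named for Myf6, Mef2c or Mef2d. The family was chosen by the ratios of the active EBF3 arrays, among which a MyoD probe was already known to stand near the top. Its values on those arrays, and every comparison that uses them, are therefore a description and carry no p-value.

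RNA came from *Xenopus laevis* animal caps, explants of the blastula roof that would become ectoderm, and was measured on 8 two-color Agilent arrays, 1 active EBF3 array and 1 DEX control array in each of 4 replicate experiments. EBF3 is a helix-loop-helix transcription factor, and hGR-XEBF3 is its fusion to the hormone-binding domain of the glucocorticoid receptor, which keeps it inactive until dexamethasone (DEX) is added. On the active EBF3 arrays, cyanine 3 (Cy3) labeled cRNA from caps with 1 ng of hGR-XEBF3 mRNA and DEX, and cyanine 5 (Cy5) labeled cRNA from hGR-XEBF3 caps without DEX. On the DEX control arrays, Cy3 labeled cRNA from caps with 0.4 ng of hGR mRNA, the receptor domain with no EBF3, and DEX, and Cy5 again labeled hGR-XEBF3 caps without DEX. All caps also carried 0.2 ng of mRNA for Noggin, the BMP antagonist that turns caps to a neural fate. They were cut at stage 9 and kept for 4.5 hours, with DEX at 30 μM where it was given. The mRNAs were injected before the first cleavage, so no promoter limited where the proteins were made. No array had its dyes exchanged. A dye bias of a probe would add the same amount to all 8 of its ratios only if it did not vary with signal or array. Whether it varied was not tested.

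MyoD, Myf5, myogenin and Myf6 are the basic helix-loop-helix factors of skeletal muscle. They bind E-box DNA together with an E protein such as E12 or HEB. MyoD and Myf5 commit mesodermal cells to muscle, while myogenin acts later, when myoblasts differentiate, and Mef2 proteins, of the MADS-box family, work beside them on the promoters of muscle genes. In the frog embryo MyoD and Myf5 are turned on in the mesoderm of the gastrula, and animal caps do not form muscle unless they are induced.

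Replicates 1 and 2 were hybridized on an array design with 1 spot per probe and replicates 3 and 4 on a design with 2 spots per probe, for which all 4 arrays lay on 1 slide. Processed signals were not on a common scale across arrays: the median Cy5 signal was 267 to 286 in replicate 1, 170 to 171 in replicate 2 and 28.2 to 65.5 in replicates 3 and 4. The log2 ratio of Cy3 to Cy5 is given throughout, so that a positive value means more signal from DEX-treated caps, and a probe was called when limma's adjusted p was under 0.05 and the mean change at least 2-fold. *X. laevis* has a pair of related gene copies, L and S, for most of these genes, and a probe can also take up RNA of the other copy. By gene number or synonym, 5 of the 6 probes matched the annotation: mf25 to *myod1.L*, XMyf-5 to *myf5.L*, myogenin U1 to *myog.L*, myogenin U2 to *myog.S* and mef2a to *mef2a.L*. The probe named for ebf3 was not well above background in Cy5 on any of the 8 arrays, although that channel is labeled as hGR-XEBF3 on all of them, so the injected construct could not be checked with it. In Cy3 the same probe gave 170, 171, 218 and 195 on the active EBF3 arrays, well above background on 3 of the 4, against 54.3, 49.6, 3.33 and 5.02 on the DEX control arrays, where it was so on 0 of the 4.

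With active EBF3, 3.03% of all probes tested were called higher and 2.84% lower. The 11 probes for neural markers gave 1 call higher and 4 lower with active EBF3. The log2 ratio of their summed signals was -1.27 to -0.73 on the active EBF3 arrays, against -0.16 to -0.01 on the DEX control arrays. The 11 probes for mesodermal and endodermal markers were those of goosecoid, chordin, sox17, mixer, gata4, gata5, gata6 and cerberus. Brachyury and VegT were counted among the upstream genes below instead. These 11 probes gave 1 call higher and 0 lower. Their ratio of sums was 0.10 to 0.92 on the active EBF3 arrays, against -0.97 to -0.26 on the DEX control arrays. The median of their mean ratios was nonetheless -0.25 with active EBF3 and 0.03 in the DEX control. The 17 keratin probes, for epidermis, gave 0 called higher and 1 lower, with ratios of sums of -0.40 to 0.48 on the active EBF3 arrays, against -0.22 to 0.69 on the DEX control arrays. In either direction, 45.5% of the neural, 9.09% of the mesodermal and endodermal and 5.88% of the keratin probes were called, against 5.87% of all probes. The part of these shifts in the myogenic values was not tested. In pools of caps, fewer cells of a type and less RNA per cell cannot be told apart.

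A difference between the untreated channels has to be given before the ratios. Cy5 carries the same label, hGR-XEBF3 caps without DEX, on both kinds of array, yet the MyoD and Myf5 probes were far brighter in it on the active EBF3 arrays. MGC52596 gave Cy5 signals of 7220, 5470, 5570 and 11000 on the active EBF3 arrays of replicates 1 to 4, against 214, 113, 33.0 and 33.4 on the DEX control arrays. The probe mf25 gave 1610, 1540, 986 and 2870 on the active EBF3 arrays, against 144, 95, 59.3 and 87.8 on the DEX control arrays. XMyf-5 gave 777, 1490, 565 and 947 on the active EBF3 arrays, against 92.7, 57.8, 41.0 and 38.9 on the DEX control arrays. In 4 of 4 replicates the Cy5 signal of each of these 3 probes was at least 2-fold higher on the active EBF3 array. After median centering, that held for 0.0849% of all probes.

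The gap was present in the raw spot signals, before background correction and dye normalization. Raw mean Cy5 signals of MGC52596 were 868, 1030, 6750 and 15700 on the active EBF3 arrays, against 82.2, 77.2, 118 and 116 on the DEX control arrays. Those of mf25 were 236, 320, 1110 and 3490, against 74.2, 73.4, 161 and 203. XMyf-5 had 142, 301, 597 and 1050, against 68.4, 66.5, 125 and 117. As folds, the raw gaps of all 3 probes were smaller than those in the processed signals, which are used below. Centered on the median of all probes and taken within each replicate, the Cy5 signal of the active EBF3 array exceeded that of the DEX control array by 6.32 ± 1.29 (log2, SD, n = 4 replicates) for MGC52596, by 3.85 ± 0.53 for mf25 and by 3.74 ± 0.74 for XMyf-5. The SD of this log2 Cy5 difference over all probes was between 0.303 and 0.423 in a replicate.

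By the smallest of their 4 differences, MGC52596, mf25 and XMyf-5 ranked 1, 2 and 3 among 21197 probes, at 5.06, 3.45 and 3.05, and the next probe, bix3-A, stood at 2.26. These 3 were the only probes whose Cy5 signal was at least 8-fold higher in 4 of 4 replicates. At least 2-fold higher in 4 of 4 replicates were 18 probes (0.0849%), of which 17 had a called, higher ratio with active EBF3, and 0 probes (0%) were at least 2-fold lower. In the DEX control, the Cy5 signal was not well above background for XMyf-5 in replicates 1 and 2 and for mf25 in replicate 1, so that these differences, the smallest of XMyf-5 among them, depend on how dim spots were read. This comparison was chosen after the Cy5 signals had been seen. The processed Cy5 signal on the active EBF3 arrays stood at 2.8%, 2.59%, 2.51% and 4.6% of the Cy3 signal for MGC52596. It stood at 0.94%, 1.13%, 0.884% and 2.64% for mf25 and at 14.1%, 14.4%, 12.4% and 22.9% for XMyf-5. All 3 shares were highest in replicate 4. Where the Cy5 signal came from was not tested. Each ratio on the active EBF3 arrays below is a ratio to this raised Cy5 level, and the Cy3 signals of both kinds of array are therefore given as well.

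**Figure D1:**
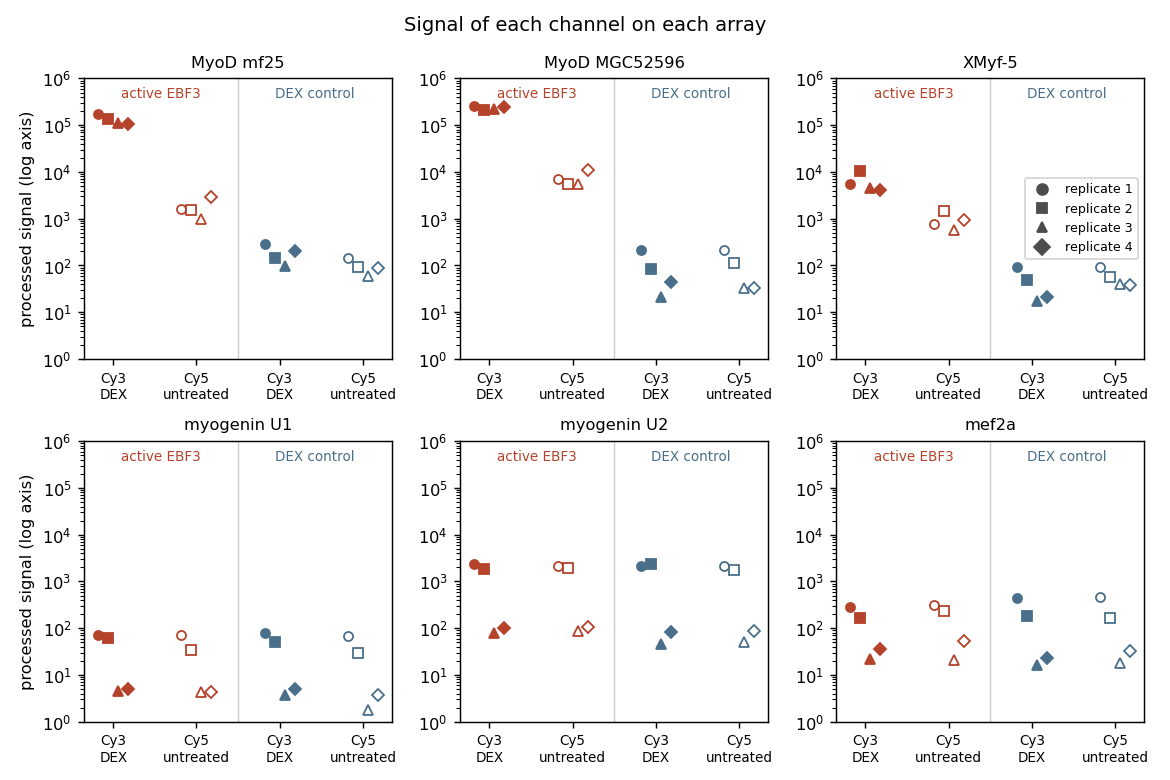
Processed signals of each channel (log axis) for the 6 probes, 1 point per array, with active EBF3 arrays (red) left of DEX control arrays (blue), Cy3 filled and Cy5 open, and the marker shape giving the replicate. For both MyoD probes and XMyf-5, the Cy3 and the Cy5 signals of the active EBF3 arrays all lie above every signal of the DEX control arrays, while for the myogenin and mef2a probes the replicates differ more than the groups do. Signals are not on a common scale across arrays.

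**Figure D2:**
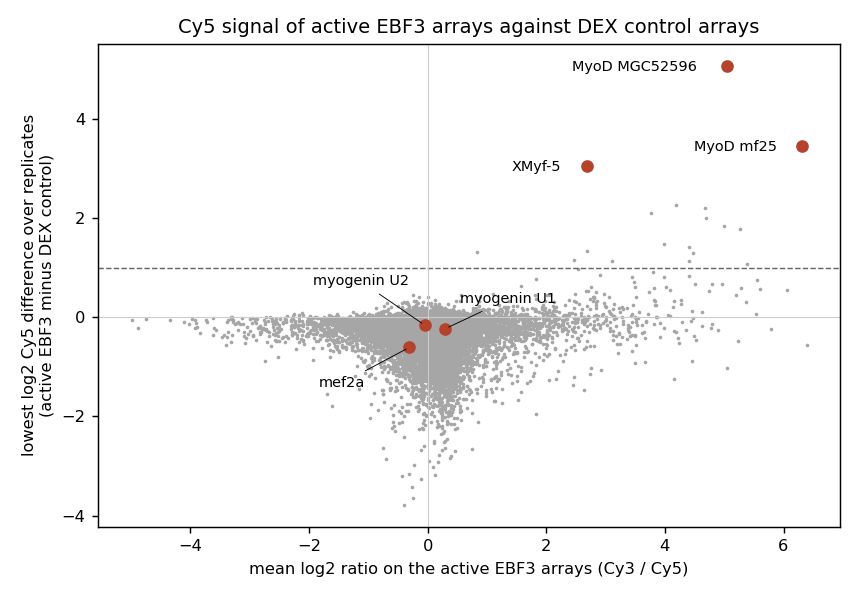
Each point is 1 of 21197 probes, placed by its mean log2 ratio with active EBF3 and by the lowest of its 4 log2 Cy5 differences, active EBF3 array minus DEX control array of the same replicate, after median centering. MGC52596, mf25 and XMyf-5 stand highest, at 5.06, 3.45 and 3.05, with bix3-A next at 2.26, and the dashed line marks a 2-fold difference.

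MyoD stood at 79.6-fold by the probe mf25 and at 33.1-fold by MGC52596 on the active EBF3 arrays, DEX-treated over untreated caps, and Myf5 at 6.45-fold. On the DEX control arrays, 0 of the 6 members were called, as were 0% of 21256 probes. With active EBF3, 3 of the 6 members were called, all higher, where 3.03% of 21357 probes were called higher, 2.84% lower and 5.87% in either direction. These ratios chose the family, so nothing is read from that count.

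MyoD is the factor whose forced expression converts other cell types to muscle. The probe mf25 had Cy3 signals of 172000, 136000, 111000 and 108000 on the active EBF3 arrays, against 294, 146, 97.3 and 206 on the DEX control arrays. Its Cy3 signal was at the 99.61 to 99.79 percentile of the active EBF3 arrays, and near the middle, at the 47.95 to 61.63 percentile, of the DEX control arrays. Log2 ratios to the Cy5 signals given above were 6.73, 6.46, 6.82 and 5.24 on the active EBF3 arrays, against 1.03, 0.62, 0.71 and 1.23 on the DEX control arrays. The groups were far apart, and the lowest ratio with active EBF3, in replicate 4, belonged to the array with the highest Cy5 signal. The mean was 6.31 ± 0.73 on the active EBF3 arrays, the rank of 2 among all probes tested, and 0.90 ± 0.28 on the DEX control arrays (SD, n = 4 each).

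The other MyoD probe, MGC52596, had Cy3 signals of 258000, 212000, 222000 and 240000 on the active EBF3 arrays, against 215, 86.2, 21.5 and 43.7 on the DEX control arrays. Its log2 ratios were 5.16, 5.27, 5.32 and 4.44 on the active EBF3 arrays, against 0.01, -0.40, -0.62 and 0.39 on the DEX control arrays. The mean was 5.05 ± 0.41 on the active EBF3 arrays, a rank of 15, and -0.15 ± 0.44 on the DEX control arrays (SD, n = 4 each). Replicate 4 again had the lowest ratio with active EBF3. The ratios with active EBF3 all lay above those of the DEX control, as they did for 4.9% of all probes. The ratio of mf25 exceeded that of MGC52596 on each of the 8 arrays, by 1.57, 1.19, 1.51 and 0.80 on the active EBF3 arrays and by 1.02, 1.02, 1.33 and 0.84 on the DEX control arrays (log2). No spot of either probe was saturated.

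Myf5, the other determination factor, is read by XMyf-5, which is described on the array only as a cDNA clone. Its Cy3 signals were 5500, 10300, 4560 and 4140 on the active EBF3 arrays, against 91.9, 49.8, 17.1 and 20.7 on the DEX control arrays. Its log2 ratios were 2.82, 2.79, 3.01 and 2.13 on the active EBF3 arrays, against -0.01, -0.21, -1.26 and -0.91 on the DEX control arrays. The mean was 2.69 ± 0.39 on the active EBF3 arrays, a rank of 185, and -0.60 ± 0.59 on the DEX control arrays (SD, n = 4 each). XMyf-5 was well above background in both channels on 4 of 4 active EBF3 arrays, but in Cy3 on only 1 and in Cy5 on only 2 of the 4 DEX control arrays, and on the DEX control arrays of replicates 1 and 2 its Cy3 value was a surrogate that stands in for a signal too dim to measure. Its ratios on the DEX control arrays were lower on the second array design, at -1.08 against -0.11 on the first.

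Myf6 lies next to Myf5 in the annotation, for both the L and the S copy. Outside the rule, 1 probe matched *myf6.S* by gene number only. It gave log2 ratios of -0.12, 0.07, 0.60 and 0.29 on the active EBF3 arrays, against -0.16, -0.29, 0.78 and 0.44 on the DEX control arrays. It was not well above background in Cy3 on any of the 8 arrays, so no change could be read for it.

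Myogenin acts in differentiating myoblasts. The probe myogenin U1 was not well above background in either channel on any of the 8 arrays, with Cy3 signals of 72.9, 60.6, 4.64 and 5.13 on the active EBF3 arrays, against 78.1, 51.5, 3.77 and 5.12 on the DEX control arrays. No fold or test is given for it. Its log2 ratios, mostly of surrogate values, were 0.04, 0.83, 0.10 and 0.21 on the active EBF3 arrays, against 0.20, 0.77, 1.09 and 0.44 on the DEX control arrays, and the groups overlapped.

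Myogenin U2 was well above background in both channels on 8 of 8 arrays. Its Cy3 signals were 2310, 1880, 77.9 and 103 on the active EBF3 arrays, against 2180, 2400, 46.6 and 84.6 on the DEX control arrays. The signal went with the replicates and their array design, which cannot be told apart, and not with the group. It was at the 76.63 to 78.74 percentile of Cy3 in replicates 1 and 2 and at the 53.82 to 55.33 percentile in replicates 3 and 4. Its log2 ratios were 0.08, -0.08, -0.19 and -0.03 on the active EBF3 arrays, against 0.00, 0.49, -0.10 and -0.01 on the DEX control arrays, and the means of -0.05 ± 0.11 with active EBF3 and 0.10 ± 0.26 in the DEX control (SD, n = 4 each) differed by less than the spread of the DEX control arrays.

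Mef2a, the single Mef2 gene on the array by name, is read by a probe for a clone described as SRF related. Its Cy3 signals were 279, 166, 21.5 and 35.4 on the active EBF3 arrays, against 450, 185, 16.5 and 23.6 on the DEX control arrays. Its log2 ratios were -0.15, -0.52, 0.04 and -0.61 on the active EBF3 arrays, against -0.06, 0.14, -0.14 and -0.49 on the DEX control arrays. The groups overlapped, and the means were -0.31 ± 0.31 with active EBF3 and -0.14 ± 0.26 in the DEX control (SD, n = 4 each).

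**Figure D3:**
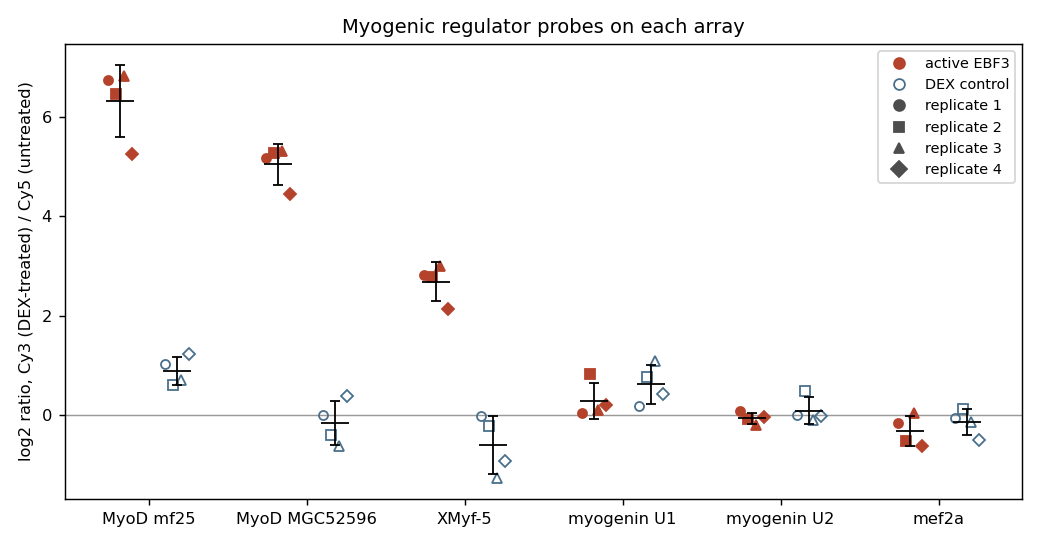
Log2 ratios of DEX-treated (Cy3) to untreated (Cy5) caps for the 6 probes, 1 point per array, with active EBF3 arrays (filled) left of DEX control arrays (open); black bars give the mean and SD of 4 arrays and shapes the replicate. The MyoD and Myf5 probes lie between 2.13 and 6.82 on the active EBF3 arrays, clear of their DEX control ratios, while the ratios of the other 3 probes overlap between the groups. Over all probes, 4.9% had ratios with active EBF3 all above those of the DEX control.

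The DEX control arrays ask what DEX and hGR without EBF3 did, against untreated hGR-XEBF3 caps, and they were not used to choose the family. Of 21256 probes, 0% were called on them by limma with Benjamini-Hochberg adjustment, and at an unadjusted p under 0.05 with a 2-fold change 36 were higher and 85 lower. The probe mf25 was above 0 on 4 of 4 of these arrays, as 0.90 (SE 0.15), at an unadjusted limma p of 0.000956 and an adjusted p of 0.163. It did not pass the test, and over the alternatives its adjusted p ranged from 0.0432 to 1. With normexp background correction and loess its ratio was 0.36. XMyf-5 was below 0 on 4 of 4 arrays, at -0.60 (SE 0.24, limma's adjusted p = 0.252). Of all probes, 27.9% had the same sign on 4 of 4 DEX control arrays, and 37.4% on 4 of 4 active EBF3 arrays. MGC52596, myogenin U2 and mef2a had adjusted p-values of 0.696, 0.753 and 0.628 from limma. Without replicate 1 the DEX control arrays gave 189 calls over all probes, in place of 0, and mf25 reached an adjusted p of 0.0432 (limma) at 0.85, under the 2-fold threshold, so that 0 members were called there too.

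Active EBF3 was then set against the DEX control, as the difference of the log2 ratios over 8 arrays, in a fit that did not pair the replicates. It was 5.42 for mf25 (SE 0.35, 42.7-fold), 5.20 for MGC52596 (SE 0.28, 36.8-fold) and 3.29 for XMyf-5 (SE 0.32, 9.77-fold), and these 3 were called higher, where 2.42% of 21197 probes were called higher, 1.44% lower and 3.86% in either direction. Replicate by replicate it was 5.70, 5.84, 6.11 and 4.01 for mf25, 5.15, 5.67, 5.93 and 4.06 for MGC52596, and 2.84, 3.01, 4.28 and 3.04 for XMyf-5. The ratios of the active EBF3 arrays lay above all those of the DEX control arrays for these 3 probes, as they did for 4.9% of all probes, while they lay below for 0 members and for 5.25% of all probes. Myogenin U2 and mef2a differed by -0.15 and -0.17. The active EBF3 arrays behind these differences chose the family, and nothing is read from the counts.

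That difference treats the Cy5 channels as equal, which they were not for MyoD and Myf5. Cy3 was also set against Cy3 within each replicate, DEX-treated hGR-XEBF3 caps over DEX-treated hGR caps, after centering on the median of all probes. Cy5 was not divided by here, but the processed Cy3 signals had been dye-normalized together with Cy5. This comparison gave 614-, 886-, 764- and 433-fold for mf25, a mean of 9.35 ± 0.45 on the log2 scale. For MGC52596 it gave 1260-, 2340-, 6890- and 4520-fold, or 11.59 ± 1.08, where the DEX control signals were close to background. For XMyf-5 it gave 62.9-, 197-, 178- and 164-fold, or 7.11 ± 0.76 (SD, n = 4 replicates each), and because its Cy3 value on the DEX control arrays was at or near background, these folds depend on how dim spots were read. On the log2 scale these means exceeded the differences of ratios, which were 5.42, 5.20 and 3.29, for all 3 probes. That follows by arithmetic from the Cy5 excess given above and is not a separate result. The Cy3 comparison left myogenin U2 and mef2a at -0.03 ± 0.28 and -0.19 ± 0.38. Raw mean Cy3 signals of mf25 were 12200, 11800, 57000 and 53900 on the active EBF3 arrays, against 70.6, 55.9, 127 and 178 on the DEX control arrays. As folds, the raw Cy3 gaps of mf25, MGC52596 and XMyf-5 were all smaller than those in the processed signals.

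The 5 probes whose ratios on the 8 arrays lay nearest to those of mf25 were *tal1.S*, the SCL factor of blood and endothelium, at a mean absolute log2 difference of 0.48, MGC84237 and LOC496078, each at 0.70, wnt3a-A, a Wnt ligand, at 0.72, and Nr2f2, an orphan nuclear receptor, at 0.79. *tal1.S* averaged 6.39 ± 0.66 on the active EBF3 arrays and 0.45 ± 0.71 on the DEX control arrays (SD, n = 4 each). The second MyoD probe, MGC52596, came at place 18 by this measure, at 1.16. The study takes MGC84237 as the likely pcdh8 gene. By this measure a near probe has ratios of similar height, and the 5 nearest averaged 5.26 to 6.39 on the active EBF3 arrays. All of these values are a description over the arrays that chose the family.

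Genes known to act before, with or against the myogenic factors were taken from lists. Of 16 probes for 11 upstream genes, 2 were called higher and 1 lower with active EBF3. Over all probes tested, 3.03% were called higher and 2.84% lower. The median log2 ratio of the upstream probes was 0.47, against 0.08 over all probes tested. Against the DEX control their median difference was 0.29, where that of all probes was -0.08. For 4 of the 16 probes, Cy5 was well above background on 0 of the 8 arrays. There were 0 probes named for pax3. Pax7, a paired-box factor of muscle progenitors and of the neural crest, rose 11.4-fold (3.51 ± 0.65, limma's adjusted p = 0.00206). Its log2 ratios were 2.76, 3.38, 4.35 and 3.54 on the active EBF3 arrays, against -0.11, 0.23, -0.21 and 0.11 on the DEX control arrays, and against the DEX control it was 11.4-fold higher as well (limma's adjusted p = 0.000424). In each replicate its Cy5 signal, too, was higher on the active EBF3 array, at 1380, 1710, 377 and 1070, than on the DEX control array, at 1030, 700, 40.6 and 51.4, with the wider gap in replicates 3 and 4.

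T-box genes precede MyoD in frog mesoderm. Brat, a probe for VegT, was called higher at 1.08 ± 0.24 (limma's adjusted p = 0.012), but the call was lost without replicate 2, 3 or 4 (adjusted p = 0.072, 0.0678 and 0.0647) and it was not called against the DEX control (0.97, limma's adjusted p = 0.0808). The other VegT probe, Xombi, was at 0.61 ± 0.12, under the 2-fold threshold, and at 0.45 against the DEX control (limma's adjusted p = 0.355). Eomesodermin probes were not called, with *eomes.L* at 2.20 ± 1.76 and *eomes.S* at 0.65 ± 0.49 (limma's adjusted p = 0.101 and 0.126). The mean of *eomes.L* was 0.87 on the first array design and 3.53 on the second. The brachyury probe Xbra, for the T-box gene of the early mesoderm, was at -0.14 ± 0.49 and Xbra3 at 0.62 ± 0.05, and Cy3 of both was not well above background on any active EBF3 array. The tbx6 probe, for a T-box gene of paraxial mesoderm, gave 0.03, 0.58, 3.55 and 2.84 on the active EBF3 arrays, against -0.08, -0.37, -0.20 and 0.57 on the DEX control arrays. Its high ratios came from replicates 3 and 4, the second array design, and it did not pass the test (limma's adjusted p = 0.156). Its Cy5 signal was 1.25, 1.26, 1.26 and 1.54 times the array's median on the active EBF3 arrays of replicates 1 to 4, against 1.46, 1.28, 0.504 and 0.502 times on the DEX control arrays. Array design and replicate cannot be told apart here. Mespo, a helix-loop-helix factor of presomitic mesoderm, was at -0.05 ± 0.09 with signal well above background, and its other probe was at 0.32 ± 0.37 in background. Eya1, a cofactor of sine oculis homeobox proteins in muscle and placodes, fell to 0.367-fold (-1.45 ± 0.35, limma's adjusted p = 0.00877). Without replicate 4 its adjusted p was 0.054, and against the DEX control it was at -0.96 (limma's adjusted p = 0.163).

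Partners of MyoD and Mef2 were read by 8 probes, of which 7 could be tested, 2 were called higher and 0 lower, with a median of 0.05. The shares over all probes were 3.03% higher and 2.84% lower. The E proteins that pair with MyoD were bright and close to 0: E12/E47 at 0.05 ± 0.11 and HEB at -0.16 ± 0.16 on the active EBF3 arrays, against 0.10 ± 0.18 and -0.32 ± 0.19 on the DEX control arrays (SD, n = 4 each). Serum response factor (srf), a MADS-box factor of muscle promoters, rose 2.17-fold (1.11 ± 0.40, limma's adjusted p = 0.0227). That call was lost without replicate 2, 3 or 4 (adjusted p = 0.103, 0.0867 and 0.103), as was its call against the DEX control (1.00, limma's adjusted p = 0.0296, and 0.2, 0.162 and 0.143 without replicate 2, 3 or 4). The coactivator probe mrtf-b rose 2.31-fold (1.21 ± 0.17, limma's adjusted p = 0.00707), and against the DEX control it was 2.39-fold higher (limma's adjusted p = 0.00554), a call lost without replicate 2 or 3 (adjusted p = 0.0754 and 0.0609). Its relatives MRTF-A and AY585230 were at -0.07 ± 0.16 and 0.00 ± 0.53.

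Inhibitors were read by 5 probes, of which 0 were called higher and 2 lower, with a median of -0.08. The shares over all probes were 3.03% higher and 2.84% lower. Id proteins lack the DNA-binding region and hold E proteins away from MyoD. Id4 fell to 0.152-fold, with log2 ratios of -2.19, -1.72, -3.09 and -3.88 on the active EBF3 arrays, against 0.31, -0.50, 0.07 and -0.35 on the DEX control arrays (-2.72 ± 0.96, limma's adjusted p = 0.012). Its Cy3 signal was well above background on 1 of 4 active EBF3 arrays. Without replicate 3 or 4 its adjusted p was 0.0503 and 0.0554. Against the DEX control Id4 was lower by -2.60 (limma's adjusted p = 0.0121), with an adjusted p of 0.132 without replicate 3. Id3 fell to 0.487-fold (-1.04 ± 0.40, limma's adjusted p = 0.0283), lost without replicate 2, 3 or 4 (adjusted p = 0.124, 0.0553 and 0.108), and against the DEX control it was at -0.58 (limma's adjusted p = 0.405). Id2 was in background, at 0.20 ± 0.46.

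Of 20 probes for muscle structural genes, 4 were called higher and 2 lower, with a median of 0.21, while 14 were not called. Over all probes, 3.03% were called higher and 2.84% lower. Among the 14, the desmin probe des-B-prov, a dim one, was at 1.40 ± 0.79 (limma's adjusted p = 0.0526). The tropomyosin probe M92304 was at 1.09 ± 0.58 (limma's adjusted p = 0.0512). In the other direction, *mybpc3.S*, also dim, was at -1.18 ± 1.06 (limma's adjusted p = 0.139). The muscle actin probe MGC53823 was not well above background in Cy5 on the active EBF3 arrays and was at least 19.5-fold higher with DEX (5.05 ± 0.72, limma's adjusted p = 0.000899). Its Cy3 signals were 1090, 1070, 136 and 505 on the active EBF3 arrays, against 69.6, 49.9, 3.00 and 5.85 on the DEX control arrays. The other muscle actin probe, acta1-prov, was at 1.51 ± 1.37 and did not pass the test (limma's adjusted p = 0.137). Troponin C (tnnc1) rose 8.77-fold (3.13 ± 0.86, limma's adjusted p = 0.00642; 0.0634 without replicate 4), and against the DEX control it was 7.05-fold higher (limma's adjusted p = 0.0052; 0.0609 without replicate 2 and 0.0705 without replicate 4). The myosin light chain probe mlc1av-A rose 5.40-fold (2.43 ± 0.42, limma's adjusted p = 0.0024). On the DEX control arrays its log2 ratios were below 0, at -0.45, -0.95, -1.40 and -1.83. Its difference from the DEX control was 3.59 (limma's adjusted p = 0.000474). The troponin probe tnnt3a-prov rose 3.19-fold (1.67 ± 0.80, limma's adjusted p = 0.0327), a call lost without replicate 2, 3 or 4 (adjusted p = 0.116, 0.0557 and 0.132).

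The structural probes thus moved in both directions. The muscle creatine kinase probe ckm-prov, for an enzyme that buffers ATP in muscle, fell to 0.232-fold (-2.11 ± 0.48, limma's adjusted p = 0.00491; 0.051 without replicate 4). Its log2 ratios were -1.43, -2.51, -2.17 and -2.33 on the active EBF3 arrays, against -0.44, -1.41, -0.50 and -1.74 on the DEX control arrays. They were below 0 in both groups, and the difference of -1.09 was not called (limma's adjusted p = 0.178) but was with the replicate block (adjusted p = 0.038). The troponin probe MGC64405 fell to 0.309-fold (-1.70 ± 0.62, limma's adjusted p = 0.0161; 0.0761 without replicate 2 and 0.0994 without replicate 4). It was at 0.305-fold of the DEX control (limma's adjusted p = 0.0239), a call lost without replicate 2, 3 or 4 (adjusted p = 0.194, 0.164 and 0.0726). Between active EBF3 and the DEX control, upstream, partner, inhibitor and structural probes gave 1, 2, 0 and 4 called higher and 0, 0, 1 and 1 called lower. With the replicate block, 7 structural probes were called, 5 higher and 2 lower, and the counts of the other 3 lists were the same. Over all probes, the difference without the block was called higher for 2.42% and lower for 1.44%, with a median of -0.08.

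**Figure D4:**
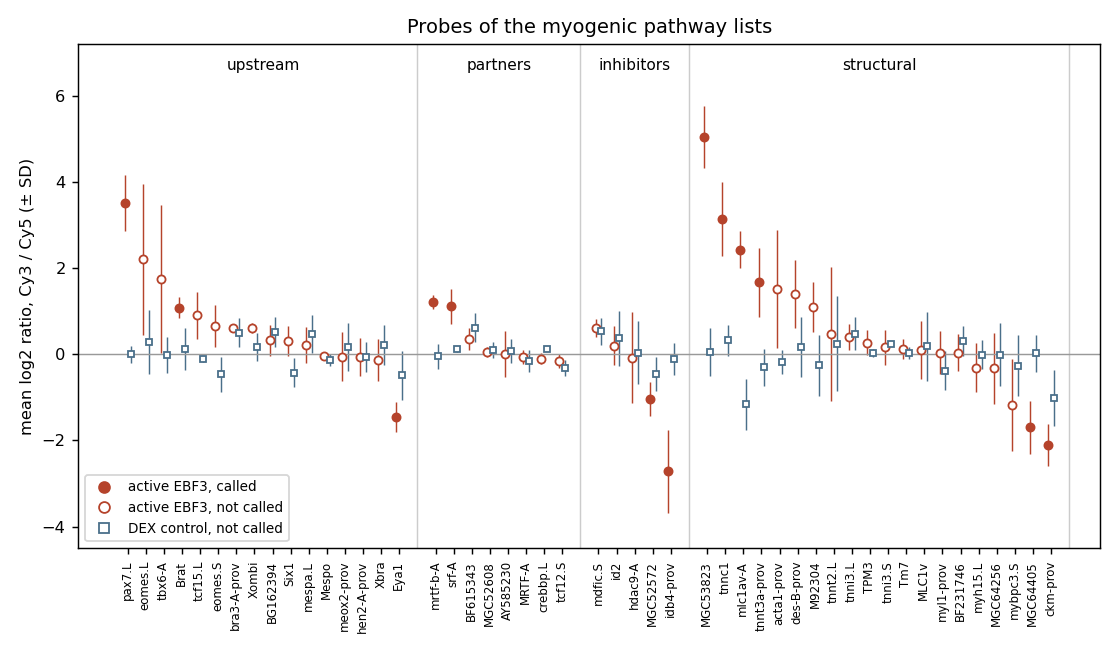
Mean log2 ratios (± SD) of the probes of the 4 lists, ordered within each list, with active EBF3 (circles, filled where called) left of the DEX control (squares) for each probe. Pax7, mrtf-b, srf, Brat, the muscle actin probe MGC53823, tnnc1, mlc1av-A and tnnt3a-prov stand among the filled circles above 0. Eya1, Id3 (MGC52572), Id4 (idb4-prov), the creatine kinase probe ckm-prov (-2.11) and the troponin probe MGC64405 (-1.70) stand among those below. Open circles were not called, but not all of them lie near 0: *eomes.L* is at 2.20, tbx6-A at 1.75 and *mybpc3.S* at -1.18.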

How the data were processed

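Scanner output of 8 arrays was deposited by the authors. Its processed intensities had been background-corrected and dye-normalized by LOWESS in Feature Extraction, per the file headers. The labels name Agilent Feature Extraction 9.1.3.1, while the file headers give version 8.1.1.1 for replicate 1 and 9.1.3.1 for the others. A deposited value table by the authors, log10 of Cy3 over Cy5, served as an alternative. Scan resolution was 10 μm in replicates 1 and 2 and 5 μm in replicates 3 and 4, and the limit for a spot well above background was stricter in the files of replicates 3 and 4.

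Cy3 was divided by Cy5 for every spot of the deposited intensities, in R 4.3.3 (data.table, version 1.17.8), and the log2 values were left uncentered and averaged per probe without control or non-uniform spots. Probes with a value on every array of a comparison were fitted in limma 3.58.1 (lmFit, eBayes, two-sided), against 0 or between groups, with Benjamini-Hochberg adjustment over all probes tested. The replicates are independent experiments per the study, and their number limits the precision. Where a channel was well above background on 0 arrays, the fold is a bound from the lowest signal of well-measured probes, after quantile normalization between arrays of the average log2 signal of both channels, and is open to dye bias.

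On simulated data for the DEX control arrays (21197 probes), 131 of 150 changes of 4-fold or more and 10 of 50 of 2-fold were recovered. For the active EBF3 arrays it was 135 of 150 and 3 of 50, and for active EBF3 against the DEX control 132 of 150 and 7 of 50. Unchanged probes called numbered 3, 3 and 8 in these runs. A call needs an estimate of at least 2-fold, which limits the recovery of 2-fold changes. The noise was drawn separately for each array, so deviations shared within a replicate were not simulated. Deviations from the group means correlated at 0.366 to 0.591 between arrays of the same replicate number and at -0.339 to 0.0483 otherwise, so the replicate numbers in the titles pair the arrays.

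Members, lists and tests were chosen with earlier results of these data known. Named were all members, the called probes of each list with the largest ratios (up to 4 in each direction), fixed genes (brachyury, tbx6, mespo, pax3, pax7, Eya1, E12/E47, HEB, srf, MRTF, Id) and the 5 probes nearest to mf25. Values of acta1-prov, bix3-A, *myf6.S*, the ebf3 probe, Xombi, *eomes.L*, *eomes.S*, des-B-prov, M92304 and *mybpc3.S* were added after they were seen. Of 1478 LOC names, 1418 matched the X. laevis v10.1 annotation.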

Additional observations from a re-analysis of the deposited data

Results flagged for a closer look

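The Cy5 signals of 3 member probes stood above the level on the DEX control arrays, although the label of that channel is the same. No ratio shows this by itself. Of all probes, 18 (0.0849%) were at least 2-fold higher in Cy5 in 4 of 4 replicates, after median centering. Of these 18, 17 had a called, higher ratio with active EBF3, so the excess was not limited to the members. The mean log2 excess on the active EBF3 arrays was 6.32 for MGC52596 (5.06 to 7.91), 3.85 for mf25 (3.45 to 4.57) and 3.74 for XMyf-5 (3.05 to 4.59) over 4 replicates. Its origin was not tested.

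Of 70 groups of 4 values examined for a single far value, 2 had one, and chance gives about 1 in 20. Myogenin U2 stood at 0.49 on the DEX control array of replicate 2, with the others between -0.10 and 0.00. The Cy3 signal of XMyf-5 on the active EBF3 array exceeded that on the DEX control array by 5.97 (log2) in replicate 1, with the others between 7.36 and 7.62. In that replicate the DEX control value was a surrogate.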

How the results depend on the processing

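MyoD (both probes) and Myf5 stayed the members called under each alternative run, on the active EBF3 arrays and against the DEX control, except that XMyf-5 did not pass the filter on bright probes against the DEX control, which left 2 called. The active EBF3 arrays chose the family, so nothing is read from those calls. On the DEX control arrays 0 members were called in each alternative, where at most 189 of all probes were. Without 1 replicate, ratios with active EBF3 ranged from 6.15 to 6.67 (mf25), 4.96 to 5.25 (MGC52596) and 2.58 to 2.88 (XMyf-5). With the replicate block, which follows the pairing of the arrays, active EBF3 against the DEX control gave 912 calls over all probes in place of 819, and 3 members, and of the named probes it changed only the call of ckm-prov. Cy3 against Cy3, an alternative added after seeing the data, gave 9.35, 11.59 and 7.11 and called 2 upstream probes. Normexp and loess put XMyf-5 at 2.53 against the DEX control. Among the members, signs turned only for values near 0. Myogenin U2 in the DEX control was at -0.01 with median centering and -0.05 on the second array design, and ranged from -0.03 to 0.16 without 1 replicate, while mef2a was at 0.04 on the first design.

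Over all probes, active EBF3 gave 616 calls with normexp and loess, 274 by the methods' t-test after Benjamini-Hochberg adjustment and 475 to 1486 without 1 replicate, in place of 1254. The DEX control gave 11 with bright probes, 1 from the authors' table, 29 by the unadjusted t-test and 0 to 189 without 1 replicate. Active EBF3 against the DEX control gave 481 with normexp and loess and 363 to 793 without 1 replicate. The higher share of calls was 51.6% with active EBF3, 44.3% with median centering and 70.4% by the adjusted t-test, and against the DEX control 62.6%, and 51.3% with bright probes. Of upstream, partner, inhibitor and structural probes with active EBF3, 1, 0 and 0 of the first 3 lists were called with normexp and loess, and 0, 0, 0 and 2 of all 4 by the adjusted t-test. The unadjusted t-test gave 5 upstream and 1 inhibitor calls. Without 1 replicate the calls were 1 to 4, 1 to 2, 0 to 2 and 2 to 8. Against the DEX control they were 1 to 2, 0 to 2, 0 to 1 and 2 to 5 without 1 replicate. There, bright probes or the authors' table gave 2 upstream and 3 structural calls, and normexp and loess 0 partner and 0 inhibitor calls. Normexp and loess ended the calls of Eya1, Brat, srf, mrtf-b, tnnt3a-prov, Id3 and Id4.

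Other signs that turned were those of E12/E47 with active EBF3 (-0.01 with normexp and loess, -0.05 with median centering) and Id2 (-0.04 with normexp and loess). Without 1 replicate, Xbra ranged from -0.34 to 0.05 with active EBF3 and from -0.72 to 0.04 against the DEX control, where Xbra3 ranged from -0.01 to 0.20, E12/E47 from -0.08 to 0.01 and AY585230 from -0.21 to 0.01. The cause was not tested in any of these. Signal over background limits myogenin U1, *myf6.S*, Xbra and Id2, XMyf-5 and MGC52596 in Cy3 of the DEX control, and XMyf-5 and mf25 in its Cy5.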
